A study of Homo sapiens with 4 samples.

Results

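The genes described here are the collagens, laminins and integrins of RKO cells, which build the extracellular matrix and attach cells to it. They were chosen by symbol alone: every row of the count table whose symbol names a collagen chain (COL, a number, A and a number), a laminin chain (LAMA, LAMB or LAMC) or an integrin chain (ITGA, or ITGB1 to ITGB8). The rule found 63 of the 15357 genes in the table, namely 30 collagens, 11 laminins and 22 integrins. Chains with no row under such a symbol, among them COL1A2, COL4A1, LAMA3 and ITGB6, are not covered. RKO is a human colon cancer cell line. The vector group (2 samples) carried a lentivirus for a control shRNA and the shCHD7_2 group (2 samples) one for the second CHD7 shRNA, and both groups were stable populations grown in the same serum-containing medium. CHD7 is an ATP-dependent chromatin remodeller, and the comparison asks which transcripts change when it is depleted. Only 1 CHD7 shRNA was sequenced, so loss of CHD7 and other effects of that hairpin cannot be told apart. Nothing in the labels says that samples of a group came from separate cultures, so p-values measure the spread between these samples, which may be technical.

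Collagens are trimeric proteins. Fibrillar collagens form the tensile fibres of connective tissue, and collagen IV and the laminins form the basement membrane under epithelia. A laminin is a trimer of 1 α, 1 β and 1 γ chain. Integrins are heterodimers of an α and a β chain that bind these ligands outside the cell and couple them to actin inside it. ITGA3, ITGA6 and ITGA7 encode laminin-binding α chains, ITGA1, ITGA2, ITGA10 and ITGA11 collagen-binding α chains, and ITGA5 and ITGAV α chains that read RGD motifs in fibronectin, vitronectin and similar ligands.

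The libraries held between 15734666 and 16068642 estimated read counts each, and the members took between 0.658% and 0.725% of them. Levels are given as CPM, read counts set to a common library size by TMM scaling, when a gene is compared between samples, and as the deposited FPKM, which is per length, when genes are compared with each other. CHD7 was at 85.4 and 91.0 CPM in the vector samples and at 55.5 and 50.1 CPM in the shCHD7_2 samples, a log2 fold change of -0.74 (SE 0.088, adjusted p = 4.2e-06, edgeR). Of 11 colorectal epithelial markers, 7 had values: KRT8, KRT18, EPCAM and CDX2 had 161 to 1349 counts in every sample, whereas CDH1 (E-cadherin), KRT20 and LGALS4 had at most 1 count in any sample. Among the fibroblast, endothelial and leukocyte markers with values, LUM, PDGFRA, S100A4, PECAM1, VWF and CD14 had at most 3 counts in any sample. The fibroblast markers TAGLN and ACTA2 had 101.62 to 175.59 and 33 to 66 counts. LYZ had 2.14 to 7.29, and CD68, a lysosomal gene also used as a macrophage marker, had 13421 to 16345. In bulk RNA, fewer cells of a type and less RNA per cell cannot be told apart.

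In the knockdown samples, the receptor chains ITGA6 and ITGA5 were higher and ITGA3, ITGB5 and ITGB1 lower, the laminin chain LAMA1 was lower, and 3 genes with few reads, COL5A1, COL11A2 and LAMC3, were higher. In total 27 members had enough reads to be tested, of which 9 passed the test at an adjusted p under 0.05, 5 higher and 4 lower. Over all 11955 genes tested, the share that passed was 11.5% (4.94% higher and 6.54% lower). With libraries scaled to their totals alone, in place of TMM, 9 members also passed, but 6 were higher and 3 lower, with LAMA5 added and ITGB1 lost. A gene was called when its change also reached 1.5-fold, and 4 members were called, ITGA6, COL5A1, COL11A2 and LAMC3, all higher, against a share of 2.88% of all genes (1.51% higher and 1.37% lower). COL5A1, COL11A2 and LAMC3 passed the filter on low counts only through their higher group. Of the 194 genes that passed the filter in this way, 22.2% were called. The 23 members above the filter's cut-off in all 4 samples included 1 called gene, ITGA6, where the share over such genes was 2.55%. Of those 23 members, 6 passed at an adjusted p under 0.05, where the share over such genes was 11.4%. They were ITGA6 and ITGA5, higher, and ITGA3, ITGB5, ITGB1 and LAMA1, lower. The samples of the groups did not overlap for 17 of the 27 tested members (9 higher and 8 lower), near the share of 53.7% over all genes tested.

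**Figure D1:**
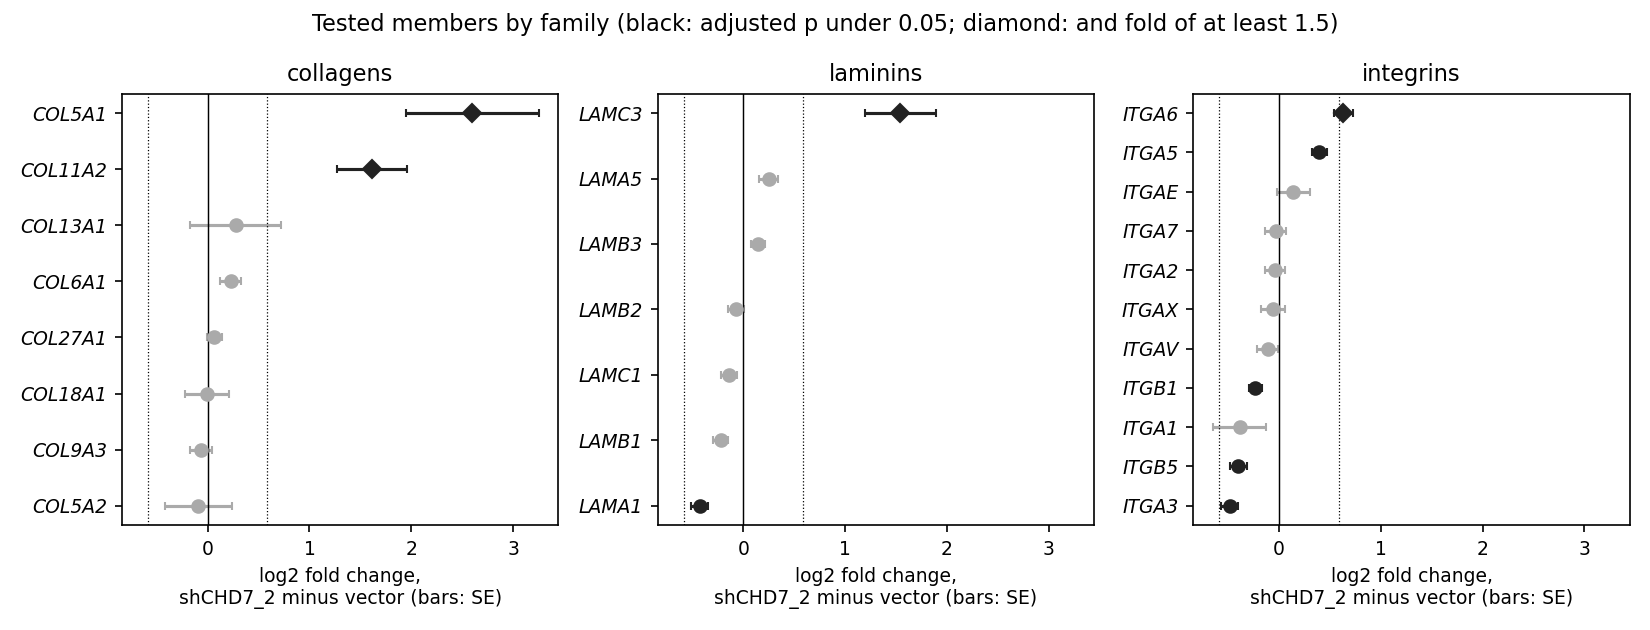
Log2 fold change, shCHD7_2 minus vector, of tested members, 1 panel per family, with bars of 1 SE (2 samples per group). Black symbols passed at an adjusted p under 0.05 in edgeR, diamonds also reached the 1.5-fold change marked by dotted lines, and the integrins that passed lie between -0.48 and 0.63.

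Integrins were the family in which the most tested members passed, 5 of 11 (2 higher and 3 lower), and all 11 lay above the filter's cut-off in every sample. Of 9 integrins above 4 log2 CPM, 5 passed, where the share over all genes above that level was 12.7%, and 3 of the 9 were lower, where the share was 7.85%. The median log2 fold change of the 11 tested integrins was -0.061, beside 0.00056 for all genes tested.

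Of the laminin-binding α chains, ITGA6 rose, ITGA3 fell and ITGA7 did not pass. ITGA6 (chromosome 2 of GRCh38, 172427354 to 172506282) encodes integrin α6, which pairs with β1 or β4. It was at 43.1 and 45.8 CPM in the vector samples and at 73.1 and 64.7 CPM in the shCHD7_2 samples. Both knockdown samples stood above both vector samples, and ITGA6 rose 1.55-fold, a log2 fold change of 0.63 (SE 0.091, adjusted p = 5.2e-05, edgeR). Without shCHD7_2 replicate 1, the log2 fold change of ITGA6 was 0.54 and no longer reached the 1.5-fold threshold, though it passed the test (adjusted p = 2.5e-05, edgeR).

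ITGA3 (chromosome 17, 50055968 to 50090481) encodes integrin α3, which pairs with β1. Its level was 107.7 and 107.9 CPM in the vector samples and 74.3 and 80.1 CPM in the shCHD7_2 samples. The groups did not overlap, and ITGA3 fell by 0.48 on the log2 scale (SE 0.083, adjusted p = 4.1e-04, edgeR). ITGA7, the remaining laminin-binding chain, was at 31.0 and 30.2 CPM in the vector samples and at 27.6 and 32.3 CPM in the shCHD7_2 samples, with overlapping groups and a log2 fold change of -0.031 (SE 0.10). The summed FPKM of the 3 chains was 37.91 and 37.95 in the vector samples and 37.05 and 37.39 in the shCHD7_2 samples. Within that sum ITGA6 made up 21.5% and 22.7% in the vector samples and 38.2% and 33.3% in the shCHD7_2 samples. ITGA3 made up 57.6% in each vector sample and 41.9% and 44.4% in the shCHD7_2 samples. The composition of the laminin-binding α chains thus differed between the groups while their sum stayed within 1 FPKM.

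The listed β chains were dominated by ITGB1, the partner of most α chains. ITGB1 (chromosome 10, 32900319 to 33005792) was at 4220.6 and 4565.5 CPM in the vector samples and at 3873.5 and 3606.7 CPM in the shCHD7_2 samples. The groups did not overlap, but the change was the smallest of the 9 that passed, a fall by 0.23 on the log2 scale (SE 0.067, adjusted p = 0.026, edgeR). ITGB1 missed the threshold with library totals in place of TMM (adjusted p = 0.056, edgeR), without vector replicate 1 (adjusted p = 0.077) and without vector replicate 2 (adjusted p = 0.49), as well as without a filter in edgeR (adjusted p = 0.15) and in all 3 limma settings (adjusted p = 0.14 to 0.29). ITGB1 held between 97.3% and 97.8% of the summed FPKM of the 6 listed β chains in every sample.

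ITGB5 (chromosome 3, 124761948 to 124901418) encodes β5, which pairs with αv and binds vitronectin. Its level was 95.7 and 93.0 CPM in the vector samples and 71.6 and 71.2 CPM in the shCHD7_2 samples. The values within each group lay close together, and ITGB5 fell by 0.40 on the log2 scale (SE 0.083, adjusted p = 0.0022, edgeR). ITGB4, the hemidesmosomal partner of α6, had 2 to 4 counts per sample, and ITGB3 had 1 to 5. ITGB7 had 1 count in each sample and ITGB2, the leukocyte β2 chain, had none in any, which for 1 sample allows up to 3 counts.

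Among RGD-binding α chains, ITGA5 was higher and ITGAV did not pass. ITGA5 (chromosome 12, 54395261 to 54419460) encodes α5, the fibronectin receptor chain that pairs with β1. It was at 233.7 and 237.5 CPM in the vector samples and at 300.7 and 319.3 CPM in the shCHD7_2 samples. The groups stood well apart, and ITGA5 rose by a log2 fold change of 0.40 (SE 0.073, adjusted p = 8.3e-04, edgeR). ITGA5 made up 50.5% and 50.3% of the summed α-chain FPKM in the vector samples and 56.4% and 60.1% in the shCHD7_2 samples. ITGAV, the partner of β5, was at 86.4 and 90.3 CPM in the vector samples and at 93.9 and 69.8 CPM in the shCHD7_2 samples. The knockdown samples lay on either side of the vector samples, with a log2 fold change of -0.11 (SE 0.10, adjusted p = 0.55, edgeR). Without shCHD7_2 replicate 1 it was -0.34 and passed (adjusted p = 0.012, edgeR), and without shCHD7_2 replicate 2 it was 0.087.

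Collagen-binding and leukocyte α chains did not pass. ITGA2, the α2 chain, was at 64.8 and 69.9 CPM in the vector samples and at 73.1 and 58.0 CPM in the shCHD7_2 samples (log2 fold change -0.039, SE 0.099). ITGA1, at 1.82 to 2.79 CPM, had a log2 fold change of -0.39 (SE 0.26). ITGA10 and ITGA11, the other collagen-binding chains, had at most 7 counts in any sample. ITGAX and ITGAE, α chains best known from leukocytes, were at 18.5 to 21.4 and 6.51 to 7.92 CPM with log2 fold changes of -0.061 (SE 0.11) and 0.14 (SE 0.17). ITGAX pairs with β2, for which no read was counted. The part of leukocytes in these levels was not tested.

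**Figure D2:**
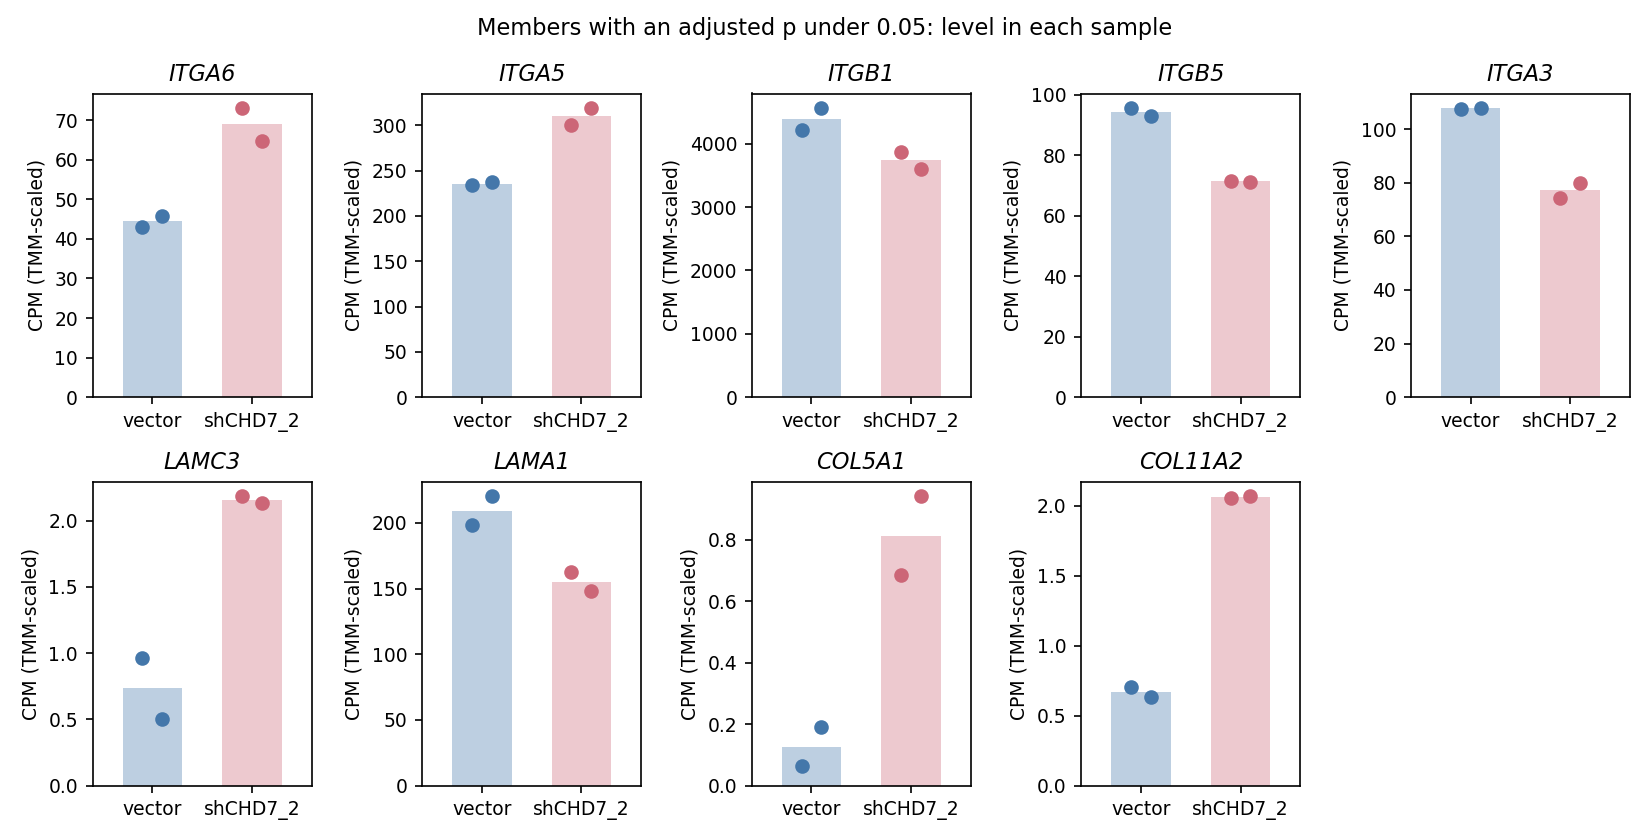
Level in CPM (read counts set to a common library size by TMM) of the 9 members that passed at an adjusted p under 0.05, in the vector and shCHD7_2 samples, with each point 1 sample and each bar the mean of 2. In no panel do the 2 groups overlap, which is likely for genes picked by a test and also held for 53.7% of all genes tested. COL5A1, COL11A2 and LAMC3, which passed the filter on low counts only through shCHD7_2, lie below 2.2 CPM.

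The 3′ UTRs of the members were searched for 3 words of 7 bases, the word AGCTATT, the word GAAGCTA and the word GCTATTA, which an earlier scan of these same counts had tied to genes that fell, so their link to falling genes is no independent result. The words overlap each other and were searched on the transcript strand of the longest 3′ UTR of each gene in GENCODE 29. At least 1 word was present in 5 of the 27 tested members (18.5%), in 22.3% of 11693 tested genes with a 3′ UTR, and in 54.8% of the 768 such genes that were lower at an adjusted p under 0.05. Of the 4 members that fell, ITGA3 held a word and ITGB1, ITGB5 and LAMA1 held none, and none of the 5 that rose held one. The length of the 3′ UTR, 335 bases in LAMA1 and 1402 in ITGA3, was not taken into account. The 25% of falling members with a word is 1 gene of 4, too few to set against the 22.3% or the 54.8%. Sites are shown for description only. Each is printed 5′ to 3′ on the transcript strand with the word in capitals and 10 bases on either side. The site of ITGA3 starts at base 54 of a 3′ UTR of 1402 bases, at chr17:50089132-50089138 on the plus strand of GRCh38. Those of COL27A1 at chr9:114311077-114311083, LAMC1 at chr1:183144257-183144263 and ITGA1 at chr5:52956671-52956677 and chr5:52954554-52954560 are also on the plus strand, in members that did not pass the test.
ITGA3: aagcggacccGCTATTAtcagatcatg
COL27A1: cctgctagggAGCTATTgatgtgcaat
LAMC1: acacactggtGCTATTAattatttcaa
ITGA1, GAAGCTA: tacgcctgggGAAGCTAgcaggattta
ITGA1, GCTATTA: gtcattcctgGCTATTAagtaaaatat

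The word of ITGA3 is the same 7 bases as that of LAMC1 and one of those of ITGA1. LAMC1 (-0.14, SE 0.079) and ITGA1 (-0.39, SE 0.26) had negative log2 fold changes that did not pass. Whether the word goes with a fall in these members was not tested. A match of this kind is a description of the letters and not evidence of a site in use.

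Of 11 laminin chains, 8 were tested, and LAMA1 fell while LAMC3 rose. The median log2 fold change of the 8 was -0.018. LAMA1 (chromosome 18, 6941744 to 7117814) encodes α1, the chain of laminin-111, which is best known from embryonic basement membranes. It was at 198.1 and 220.1 CPM in the vector samples and at 162.3 and 148.1 CPM in the shCHD7_2 samples. The groups did not overlap, and LAMA1 fell by 0.43 on the log2 scale (SE 0.080, adjusted p = 8.8e-04, edgeR). Without vector replicate 2 the change was -0.35 and missed the threshold (adjusted p = 0.057, edgeR).

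LAMB1 and LAMC1, which encode the β1 and γ1 chains that join α1 in laminin-111, had negative changes that did not pass. LAMB1 was at 230.4 and 251.2 CPM in the vector samples and at 210.9 and 202.1 CPM in the shCHD7_2 samples (log2 fold change -0.22, SE 0.076, adjusted p = 0.061, edgeR). Leaving out single samples, the log2 fold change of LAMB1 ran from -0.28 to -0.16. LAMC1 was at 176.4 and 189.1 CPM in the vector samples and at 173.6 and 157.9 CPM in the shCHD7_2 samples. In both genes each knockdown sample lay below each vector sample, though the groups did not overlap for 53.7% of all genes tested. LAMA5, the α5 chain of adult epithelial basement membranes, was at 66.9 and 58.3 CPM in the vector samples and at 70.8 and 78.1 CPM in the shCHD7_2 samples. Its log2 fold change of 0.25 did not pass (SE 0.092, adjusted p = 0.082, edgeR), although LAMA5 passed with library totals in place of TMM. LAMB2, the β2 chain, had a log2 fold change of -0.073 (SE 0.081).

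LAMB3, the β3 chain of epithelial laminin-332, was by far the most abundant transcript among the listed laminin chains. Its FPKM was 276.8 and 264.0 in the vector samples and 300.8 and 317.4 in the shCHD7_2 samples, between 69.2% and 75.8% of the summed laminin FPKM. The α3 chain of that laminin (LAMA3) had no row under that symbol in the count table. The log2 fold change of LAMB3 was 0.14 (SE 0.069, adjusted p = 0.19, edgeR). LAMC3 (chromosome 9, 131009082 to 131094473), the γ3 chain, had 15 and 8 counts in the vector samples and 35 and 34 in the shCHD7_2 samples. Its level was at most 0.37 FPKM, and the ratio of shCHD7_2 to vector counts was 2.94 (95% interval from counting error alone 1.81 to 4.93). It passed the filter only through its shCHD7_2 samples, which that interval does not allow for. Without a filter it missed the threshold (adjusted p = 0.097, edgeR). LAMC3 rose by a log2 fold change of 1.54 (SE 0.35, adjusted p = 0.0049, edgeR), but missed the threshold in DESeq2 (adjusted p = 0.097) and without vector replicate 2 (adjusted p = 0.10, edgeR). LAMA2, LAMA4 and LAMB4 had at most 2 counts in any sample.

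**Figure D3:**
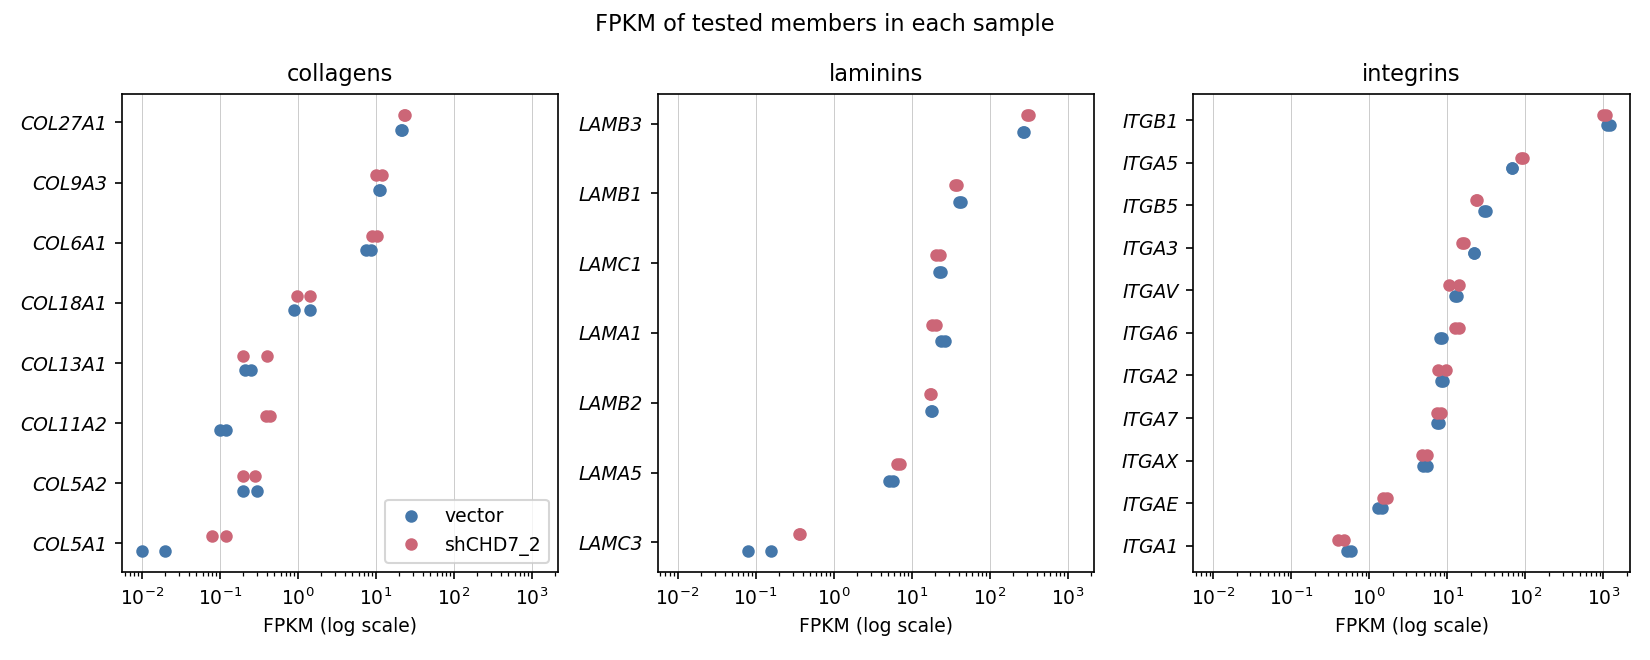
FPKM of tested members on a log axis, 1 panel per family, with 2 points per group (blue, vector, and red, shCHD7_2). ITGB1 (984.5 to 1214.9 FPKM) and LAMB3 (264.0 to 317.4 FPKM) stand above the other genes of their families, and no collagen exceeds 23.3 FPKM.

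The listed collagens were sparse in these cells. Chains with no row in the count table, such as COL1A2 and COL3A1, could not be assessed. Of 30 listed collagens, 22 did not pass the filter, none of them with more than 10 counts in any sample, and 3 (COL4A3, COL4A5 and COL14A1) had no count at all. COL7A1, the anchoring fibril collagen, reached 10 counts in each vector sample and 6 in each shCHD7_2 sample. COL1A1, the main chain of collagen I, had 1 to 7 counts. The 4 listed chains of collagen IV had at most 7. Compared per length, COL27A1, COL9A3 and COL6A1 were the 3 highest, and COL27A1 alone made up between 48.0% and 52.4% of the summed collagen FPKM.

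None of those 3 passed the test. COL27A1, a fibrillar collagen best known from cartilage, was at 130.8 and 139.1 CPM in the vector samples and at 140.2 and 142.6 CPM in the shCHD7_2 samples (log2 fold change 0.067, SE 0.078). COL9A3, a chain of fibril-associated collagen IX, was at 26.8 and 25.5 CPM in the vector samples and at 22.7 and 27.2 CPM in the shCHD7_2 samples (log2 fold change -0.068, SE 0.11). COL6A1, a chain of collagen VI, was at 35.3 and 30.7 CPM in the vector samples and at 35.6 and 41.7 CPM in the shCHD7_2 samples. Its log2 fold change of 0.23 (SE 0.10, adjusted p = 0.16, edgeR) did not pass. Leaving out single samples, the log2 fold change of COL6A1 ran from 0.11 to 0.33. COL6A2 and COL6A3, the chains it assembles with, had at most 3 counts in any sample. COL18A1, the precursor of endostatin, was at 7.73 and 4.75 CPM in the vector samples and at 5.05 and 7.33 CPM in the shCHD7_2 samples. Its groups overlapped fully (log2 fold change -0.0099, SE 0.22), and it was the only tested member with fractional counts in all samples, as when reads are shared with another gene, so its level is uncertain.

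The 2 collagens that passed belong to the fibrillar V/XI type, which sets the diameter of larger fibrils, and both had few reads. Both passed the filter on low counts only through their shCHD7_2 samples, which the ratios and intervals below do not allow for. Without a filter neither passed (adjusted p = 0.059 for COL11A2 and 0.11 for COL5A1, edgeR). COL11A2 (chromosome 6, 33162681 to 33192499) encodes a chain of collagen XI. It had 11 and 10 counts in the vector samples and 33 in each shCHD7_2 sample. The ratio of counts was 3.08 (95% interval from counting error alone 1.86 to 5.29), and COL11A2 rose by a log2 fold change of 1.61 (SE 0.34, adjusted p = 0.0030, edgeR), a call that DESeq2 did not make (adjusted p = 0.080). COL5A1 (chromosome 9, 134641774 to 134844843) encodes the α1 chain of collagen V. It had 1 and 3 counts in the vector samples and 11 and 15 in the shCHD7_2 samples. The ratio was 6.36 with an interval of 2.21 to 25.1, and the fitted log2 fold change was 2.60 (SE 0.65, adjusted p = 0.010, edgeR). COL5A1 missed the threshold without vector replicate 1 (adjusted p = 0.13, edgeR) and without shCHD7_2 replicate 2 (adjusted p = 0.095, edgeR), and DESeq2 gave it no adjusted p.

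COL5A2 and COL11A1 encode partners of these chains. COL5A2 did not pass the test, and COL11A1 had too few counts to be assessed. COL5A2 had 29 and 19 counts in the vector samples and 27 and 19 in the shCHD7_2 samples (log2 fold change -0.093, SE 0.33), and COL11A1 had at most 2 counts and was not tested. COL13A1, a transmembrane collagen, had 11 and 10 counts in the vector samples and 9 and 17 in the shCHD7_2 samples. The tested collagens had a median log2 fold change of 0.15. For the 5 of them above the filter's cut-off in all 4 samples the median was -0.0099, and none passed. Of 12 fibroblast markers, 5 had values, and their summed level was 12.4 and 13.3 CPM in the vector samples and 10.3 and 10.7 CPM in the shCHD7_2 samples, nearly all of it from TAGLN and ACTA2, which are also smooth muscle genes. ACTA2 was higher with a log2 fold change of 0.82 and TAGLN lower with -0.72, while LUM and PDGFRA had 0 to 3 counts. The part of other cells in the rise of COL5A1 was not tested.

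Genes that modify collagens, bind the same ligands or link integrins to actin were followed in 4 lists. They were written from general knowledge. The median log2 fold change of the 38 tested integrin-linked adhesion proteins was -0.066. Of the 38, 6 passed, all lower, where 11.5% of all genes tested passed (6.54% lower, or 7.85% lower among genes above 4 log2 CPM). The following 5 of them did not reach a 1.5-fold change and were picked outside the naming rule with their values known: PARVA (-0.50) and ILK (-0.26) of the ILK-parvin complex at integrin tails, the adhesion adaptors TGFB1I1 (-0.46) and LPP (-0.43, with fractional counts and so less certain), and KRIT1 (-0.49), a partner of the β1-tail binding protein ITGB1BP1, each as a log2 fold change. Talin (TLN1), vinculin (VCL) and focal adhesion kinase (PTK2) were tested and did not pass.

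Of 27 tested genes for collagen synthesis and crosslinking, 4 passed, 1 higher and 3 lower, where 11.5% of all genes tested passed. The median log2 fold change of the 27 was -0.038. LOX, lysyl oxidase, which crosslinks collagen and elastin, was called lower. It was at 6.06 and 6.71 CPM in the vector samples and at 4.18 and 4.07 CPM in the shCHD7_2 samples (log2 fold change -0.63, SE 0.18, adjusted p = 0.028, edgeR). P4HA1, the prolyl 4-hydroxylase subunit, and CRTAP, a component of the prolyl 3-hydroxylation complex, fell by 0.54 and by 0.43 on the log2 scale, while COLGALT1, a collagen galactosyltransferase, rose by 0.36. These 3 were named after their values were seen.

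Of 9 tested non-integrin receptors for laminin or collagen (median -0.0023), 4 passed, 1 higher and 3 lower, where 11.5% of all genes tested passed. None was called. The 4 that passed were DAG1 (dystroglycan, log2 fold change 0.28), CD44 (-0.42), BCAM (-0.42), a receptor of laminin α5, and ADGRG6 (-0.38), all named after their values were seen. Of 10 tested matrix glycoproteins outside the collagens and laminins (median 0.18), 2 passed, 1 higher and 1 lower, beside the same share of 11.5%. EFEMP2, fibulin-4, a protein of elastic fibres, was called lower, with 29 and 21 counts in the vector samples and 10 and 13 in the shCHD7_2 samples (log2 fold change -1.14, SE 0.37, adjusted p = 0.048, edgeR). TNC, tenascin-C, rose by 0.39 on the log2 scale (adjusted p = 0.0049, edgeR), and was also named after its value was seen.

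**Figure D4:**
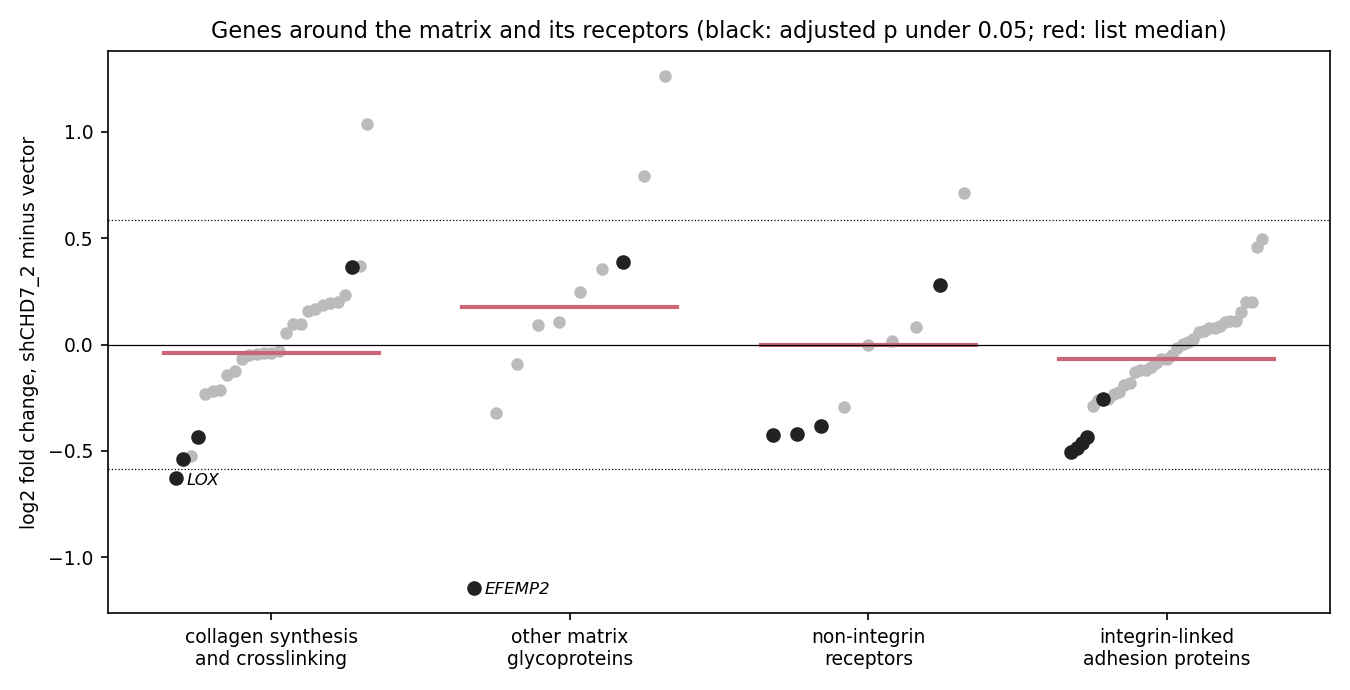
Log2 fold change, shCHD7_2 minus vector, of tested genes in 4 lists around the matrix and its receptors, each point 1 gene, ordered by value within a list. Black points passed at an adjusted p under 0.05, red lines are list medians, dotted lines mark 1.5-fold, and the called genes LOX and EFEMP2 are lower.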

How the data were processed

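Polyadenylated RNA of 2 vector and 2 shCHD7_2 samples of RKO cells was sequenced. The authors deposited expected counts, estimated reads per gene without normalization, and FPKM values, scaled by them to transcript length and library depth. The submitters' processing notes name Bowtie2, RSEM, DESeq2 and the build hg38, with no version or role, and annotation and strand setting are not given in the sources used here. Expected counts were rounded to whole numbers. Low genes were removed by edgeR's filterByExpr (edgeR 4.0.16 in R 4.3.3, minimum count 10), libraries were scaled by TMM, and edgeR was run over all 11955 remaining genes with the quasi-likelihood test and Benjamini-Hochberg adjustment. Standard errors were derived from the F statistic. A call needed a 1.5-fold change besides an adjusted p under 0.05. The scripts were tested on simulated counts. With 2 samples against 2, an exact two-sided permutation p cannot go below 0.333.

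Named were CHD7, all members with an adjusted p under 0.05, the 5 tested members per family with the highest FPKM, untested members with at least 10 counts in a sample, and up to 5 called genes per list. Other members named were chosen after their values were seen. Members, lists, words and groupings by role were chosen with earlier results of these data known. Some genes and sites are not reported here or drawn, though counts and medians include them. Gene positions and 3′ UTRs are from GENCODE 29 (GRCh38). Alternatives were DESeq2 1.42.0, other scalings, no filter, a replicate block, limma 3.58.1 on log2-transformed FPKM after adding 1 or 0.1, no fold threshold and leaving out each sample. A crossed pairing was added after the data were seen. Depths from 15734666 to 16068642 counts limit genes of few reads, and intervals cover counting error only.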

Additional observations from a re-analysis of the deposited data

How the results depend on the processing

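Of the 4 called members, 1 (ITGA6) was called in DESeq2, in edgeR on unfiltered counts, and in limma on log2(FPKM + 1) or log2(FPKM + 0.1) with a mean FPKM of at least 1, where COL5A1, COL11A2 and LAMC3 are not tested. None (0) was called in limma on log2(FPKM + 1) without a filter, which tested 59 members. With no fold threshold 9 passed, and leaving out single samples gave 3 each time. Over all genes the count of 344 became 219 in DESeq2, 141 without a filter in edgeR, 172 and 23 in limma on log2(FPKM + 1) with and without the filter, 1373 with no fold threshold, and 308 to 380 leaving out single samples. CHD7 was called in every edgeR and DESeq2 setting. In limma its change was under 1.5-fold, -0.51 on log2(FPKM + 1) and -0.58 on log2(FPKM + 0.1), and without the filter (-0.51) it also missed the test (adjusted p = 0.10). Leaving out single samples, where the lone sample of an arm is assumed to vary like the other arm, moved the median log2 fold change of the collagens between 0.083 and 0.34, of the integrins between -0.22 and 0.033, and of the laminins between -0.093 and 0.066. ITGA6 and ITGA3 passed under all 13 alternatives but limma without a filter. ITGA5, ITGB5 and LAMA1 also missed without a filter in edgeR. Among members that did not pass, the direction of COL18A1 turned with library totals (0.033), limma on log2(FPKM + 1) with or without the filter (0.026) and limma on log2(FPKM + 0.1) (0.051). Leaving out single samples, it ran from -0.32 to 0.38 for COL18A1, from -0.25 to 0.66 for COL13A1, from -0.20 to 0.052 for COL9A3 and from -0.34 to 0.087 for ITGAV. The causes were not tested. Same-numbered samples did not deviate together (correlation -0.198 across genes and -0.504 across those above 4 log2 CPM). With 2 samples per group, the negative sign means that samples of crossed numbers did, and the cause was not tested. With the replicate block, 4 members and 329 genes were called and 9 members passed, the same genes as without it. With the numbers crossed, a pairing added after the data were seen, 4 members and 423 genes were called and 14 members passed in place of 9. Depth limits the 36 members that were not tested, none with more than 10 counts in a sample.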
